A study of Mus musculus with 6 samples.

Results

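The mRNA levels of 10 subunits of the SWI/SNF chromatin remodeling complexes were examined in cell lines grown from mouse liver tumors. The members were chosen by gene symbol as *Smarca4*, *Smarca2*, *Smarcc1*, *Smarcc2*, *Smarcb1*, *Smarce1*, *Arid1a*, *Arid1b*, *Arid2* and *Pbrm1*, and all 10 were found among the 20856 genes with values. RNA-seq had been performed on 6 lines on the C57BL/6 background, 3 *Myc*; sg*Trp53* and 3 *Myc*; sg*Kmt2c*, which are numbered below by their replicate labels. Tumors of both genotypes had been started in hepatocytes of young adult female mice by hydrodynamic injection of a *Myc* transposon together with a pX330 plasmid for transient Cas9 and a guide RNA against either *Trp53* (p53) or *Kmt2c* (MLL3, a histone H3K4 methyltransferase). All 6 lines therefore carried *Myc*, no line without a targeted gene was compared, and a difference can come from either the *Kmt2c* or the *Trp53* lesion. The lines were tumor-derived cultures of different mice rather than isogenic cells, received no further treatment, and had been passaged until fibroblasts were no longer seen. The sg*Kmt2c* guide leaves heterozygous or homozygous indels, and sg*Kmt2c* lines 2 and 3 carry the names 2A and 2T1, which leave a shared origin possible although the study describes its lines as coming from different mice. With both counted as a single sample, the test described below called 0 of all 11617 genes tested, so it says nothing about the members.

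SWI/SNF complexes use the energy of ATP to slide or evict nucleosomes and so open promoters and enhancers. In the BAF and PBAF forms a single ATPase, SMARCA4 (BRG1) or SMARCA2 (BRM), sits on a core that includes SMARCC1, SMARCC2, SMARCB1 and SMARCE1. The BAF form contains ARID1A or ARID1B, and the PBAF form contains ARID2 and PBRM1. Several of these genes, *ARID1A* and *ARID2* among them, are recurrently inactivated in human liver cancer.

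Between 3680068 and 6878625 reads per line fell on listed genes, with 5312182 to 6878625 for sg*Trp53* and 3680068 to 4704539 for sg*Kmt2c*. The sample sheets named 1 flow cell and 2 lanes in all, and the lanes of each single library were not compared. Levels are given below as the deposited RPKM, the reads of a gene per kilobase of its listed transcript, and divided by the library total. *Trp53* measured 17.2, 17.6 and 19.4 RPKM across the sg*Trp53* set, against 92.2, 124 and 121 across the sg*Kmt2c* set. *Kmt2c* overlapped between the genotypes, at 18.4 to 24.2 RPKM and 9.51 to 25.0 RPKM, and a guide-induced indel need not lower the mRNA level. The hepatocyte label was checked with 12 marker genes, whose summed level was 5.71 to 358 RPM (reads of a gene scaled to a common library total) in 5 lines and 5752 in sg*Kmt2c* line 1. The latter line also stood apart with the highest sum of 7 epithelial markers (10437 RPM, against 102 to 1627 in the others) and the lowest sum of 11 fibroblast markers (1.49, against 142 to 4078). The 6 endothelial markers summed to 0.815 to 2.58 RPM, with *Emcn* at 0 throughout. In bulk samples, fewer cells of a type and less RNA per cell cannot be told apart.

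No SWI/SNF subunit passed the test of a difference between the genotypes. With limma, which fits every gene with genotype as the only term, on log2(RPKM + 1), and with p-values adjusted over all genes tested, 0 of the 10 members passed an adjusted p of 0.05, where 0.129% of the 11617 genes tested did. At an unadjusted p under 0.05 the count was also 0, against 8.58% of all genes tested. For each of the 10, at least 1 line of a genotype lay within the range of the other, beside 16.2% of all genes with lines that did not overlap. In a list of 10 genes, counts of 0 lie near these shares and do not set the members apart from other genes. The fitted difference, sg*Kmt2c* minus sg*Trp53*, was negative for 7 members and positive for 3, with a median of -0.20 on the log2 scale, beside a median of -0.09 over all genes. The median size of the difference, regardless of direction, was 0.30 for the members and 0.29 for all genes on this scale.

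**Figure D1:**
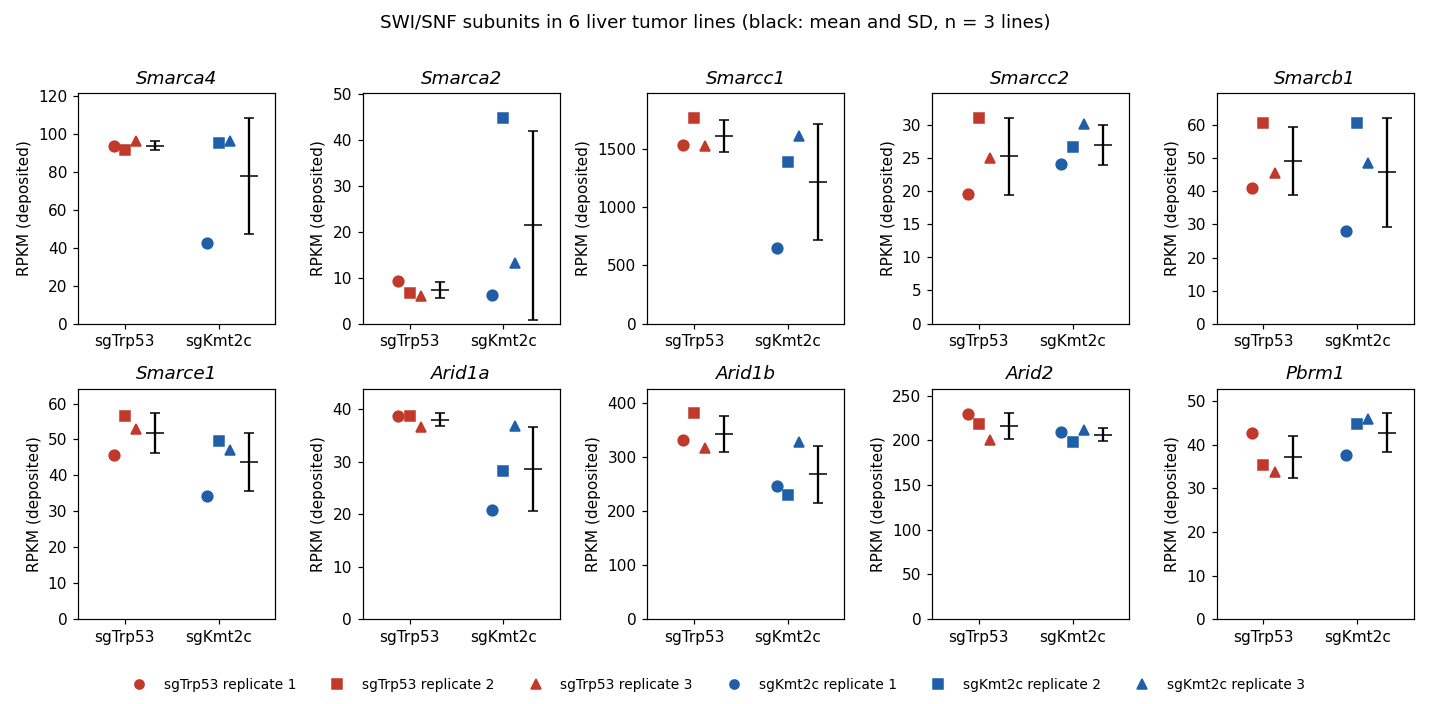
Deposited RPKM (y axis, linear from 0, a scale of its own for each gene) of the 10 SWI/SNF subunits in the 3 sgTrp53 lines (red) and the 3 sgKmt2c lines (blue), with the genotype mean and SD in black (n = 3 lines). In every panel the points of the genotypes overlap, and sgKmt2c replicate 1 is the lowest line for Smarca4, Smarcc1, Smarcb1, Smarce1 and Arid1a.

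The ATPases varied among the lines in different ways, *Smarca4* being low in a single line and *Smarca2* high in another of the same genotype. The sequences just before the starts of both genes are shown because the balance of this pair is among the comparisons below. They were taken from RefSeq promoters of GRCm38.p6, at chr9:21615919-21616168 for *Smarca4* and chr19:26604910-26605114 for *Smarca2*, both on the plus strand and ending before the start of the gene. Capitals mark CpG dinucleotides, of which there are 25 and 27.

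Smarca4: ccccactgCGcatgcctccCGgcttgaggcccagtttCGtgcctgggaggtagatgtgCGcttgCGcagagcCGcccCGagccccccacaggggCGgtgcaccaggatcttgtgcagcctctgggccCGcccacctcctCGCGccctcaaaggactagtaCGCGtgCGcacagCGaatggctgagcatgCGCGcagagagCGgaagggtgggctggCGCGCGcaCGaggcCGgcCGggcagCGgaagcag

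Smarca2: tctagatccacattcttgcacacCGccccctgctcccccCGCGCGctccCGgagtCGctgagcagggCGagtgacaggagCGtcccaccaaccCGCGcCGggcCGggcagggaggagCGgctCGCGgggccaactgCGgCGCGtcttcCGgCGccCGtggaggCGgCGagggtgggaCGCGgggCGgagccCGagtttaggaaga

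A stretch from 250 bases before to 50 bases after the start was held in that RefSeq table for 8 of the 10 members, as 9 promoters with a second one for *Arid1a*. Their GC content was 60.7% to 81% and their CpG count 22 to 48, where the medians over all 32851 promoters of the same length were 52.7% and 7. The letters CACGTG, the E-box to which MYC is known to bind and which reads the same on both strands, occurred in 1 of the 9, that of *Pbrm1*, and in 7.15% of all promoters. Such a match describes the sequence and is no evidence of binding.

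*Smarca4* (chr9:21616169-21704230, GRCm38), the BRG1 ATPase, was at 93.6, 91.1 and 96.0 RPKM across sg*Trp53* lines 1 to 3, against 42.6, 95.0 and 95.9 across sg*Kmt2c* lines 1 to 3. It was thus level in 5 lines and lower in sg*Kmt2c* line 1 alone, which had 0.451 times the mean of the other 5. The genotype means were 93.6 ± 2.43 and 77.8 ± 30.6 RPKM (SD, n = 3), and the log2 fold change was -0.35 (95% CI -1.15 to 0.44, limma adjusted p = 0.760). Without sg*Kmt2c* line 1 it was 0.029. After median-of-ratios scaling that line was at 45.9 and the others at 89.2 to 96.7.

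*Smarca2* (chr19:26605115-26778321), the alternative BRM ATPase, was at 9.24, 6.64 and 6.07 RPKM across the sg*Trp53* set, against 6.23, 44.8 and 13.1 across the sg*Kmt2c* set. sg*Kmt2c* line 2 was 5.42 times the mean of the other 5 lines, line 3 lay above every sg*Trp53* line, and line 1 lay within their range. The means of 7.32 ± 1.69 and 21.4 ± 20.6 RPKM (SD, n = 3) corresponded to the largest fitted fold change among the members, 1.03 on the log2 scale (95% CI -0.51 to 2.57, limma adjusted p = 0.682). It was 0.30 without sg*Kmt2c* line 2 and was 1.63 without sg*Kmt2c* line 1. The spread of *Smarca2* within genotypes, an SD of 0.97 on the log2 scale, was larger than that of 89.7% of all genes tested. These values rest on 172 to 967 reads per line. sg*Kmt2c* line 2 had the lowest hepatocyte marker sum (5.71 RPM) and a fibroblast marker sum of 902 RPM, within the range of the other lines. The part of either in the *Smarca2* level was not tested.

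The scaffold subunits SMARCC1 (BAF155) and SMARCC2 (BAF170) pair with each other at the base of the complex. *Smarcc1* (chr9:110117708-110240178) was at 1534, 1767 and 1527 RPKM across the sg*Trp53* set, against 651, 1386 and 1608 across the sg*Kmt2c* set. As for *Smarca4*, sg*Kmt2c* line 1 was the lowest, at 0.416 times the mean of the others. The means were 1609 ± 136 and 1215 ± 501 RPKM (SD, n = 3), with a log2 fold change of -0.50 (95% CI -1.37 to 0.36, limma adjusted p = 0.715), which became -0.10 without that line. *Smarcc2* (chr10:128459236-128490173) was at 19.5, 31.0 and 25.0 RPKM across the sg*Trp53* set, against 24.1, 26.7 and 30.2 across the sg*Kmt2c* set. Here the sg*Kmt2c* lines lay inside the range of the sg*Trp53* lines, and sg*Kmt2c* line 1 was not low. Its log2 fold change was 0.11 (95% CI -0.44 to 0.66, limma adjusted p = 0.886).

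*Smarcb1* (chr10:75896769-75921617), which encodes the SNF5 core subunit that contacts the nucleosome and is lost in rhabdoid tumors, was at 41.0, 60.8 and 45.6 RPKM across the sg*Trp53* set, against 28.0, 60.8 and 48.5 across the sg*Kmt2c* set. Line 2 of each genotype was high and sg*Kmt2c* line 1 was again the lowest. The log2 fold change was -0.15 (95% CI -0.92 to 0.62, limma adjusted p = 0.893), and 0.16 without sg*Kmt2c* line 1. *Smarce1* (chr11:99209047-99231017), which encodes the HMG-box subunit BAF57, was at 45.7, 56.6 and 52.95 RPKM against 34.4, 49.6 and 47.2 RPKM. sg*Kmt2c* line 1 lay below all other lines, and the remaining sg*Kmt2c* lines lay within the sg*Trp53* range. Its log2 fold change was -0.25 (95% CI -0.76 to 0.26, limma adjusted p = 0.740), and -0.089 without sg*Kmt2c* line 1.

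Of the subunits that define BAF, *Arid1a* (chr4:133679008-133756769) was at 38.7, 38.8 and 36.6 RPKM across the sg*Trp53* set, against 20.8, 28.2 and 36.9 across the sg*Kmt2c* set. The sg*Trp53* lines were close together, sg*Kmt2c* line 3 was level with them, and sg*Kmt2c* lines 1 and 2 were lower. With means of 38.0 ± 1.26 and 28.6 ± 8.06 RPKM (SD, n = 3), the log2 fold change was -0.43 (95% CI -1.01 to 0.14, limma adjusted p = 0.650), and -0.23 without sg*Kmt2c* line 1. Its paralog *Arid1b* (chr17:4994332-5347656) had the same arrangement of lines, at 332, 381 and 316 RPKM against 247, 230 and 329 RPKM. sg*Kmt2c* lines 1 and 2 were below every sg*Trp53* line, and line 3 was within their range. The log2 fold change of *Arid1b* was -0.37 (95% CI -0.86 to 0.12, limma adjusted p = 0.650).

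The PBAF subunits had the smallest spread within genotypes among the 10, with SDs of 0.078 for *Arid2* and 0.17 for *Pbrm1* on the log2 scale. *Arid2* (chr15:96287518-96404992), which encodes the DNA-binding ARID subunit of PBAF, was at 229, 218 and 200 RPKM across the sg*Trp53* set, against 209, 198 and 211 across the sg*Kmt2c* set. Its highest line exceeded its lowest by a factor of 1.16, and its within-genotype SD was undercut by only 0.671% of the genes tested. The log2 fold change was -0.06 (95% CI -0.44 to 0.32, limma adjusted p = 0.911). It was 0.017 after median-of-ratios scaling, so no direction can be given. *Pbrm1* (chr14:31019138-31121592), which encodes the polybromo protein with its row of acetyl-lysine-binding bromodomains, was at 42.7, 35.4 and 33.6 RPKM against 37.6, 44.7 and 45.8 RPKM. sg*Kmt2c* lines 2 and 3 were the highest lines and sg*Kmt2c* line 1 fell below sg*Trp53* line 1. The log2 fold change of *Pbrm1* was 0.19 (95% CI -0.26 to 0.65, limma adjusted p = 0.765), which was 0.29 without sg*Trp53* line 1 and 0.13 without sg*Trp53* line 3.

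**Figure D2:**
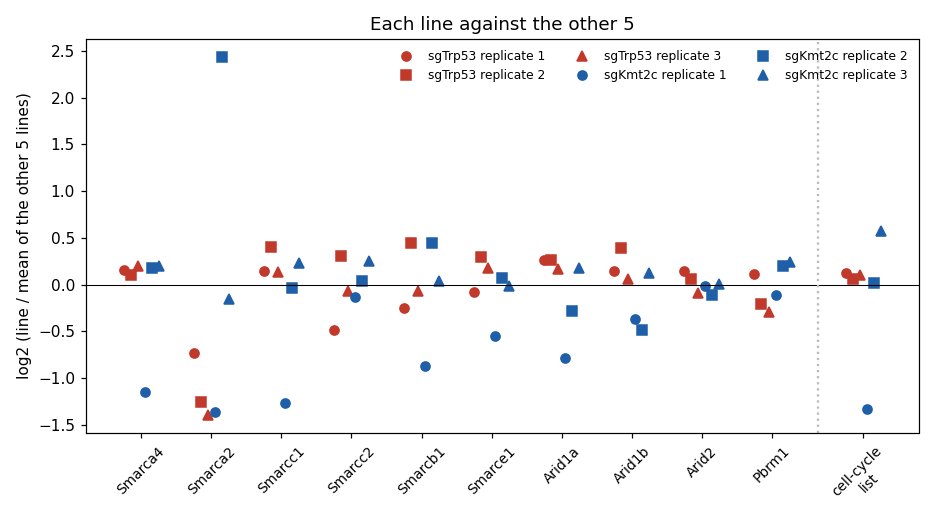
Log2 of each line's RPKM over the mean of the other 5 lines (y axis) for the 10 subunits, and the same for the summed RPM of 9 cell-cycle genes to the right of the dotted line; red, sgTrp53 lines, and blue, sgKmt2c lines. The sgKmt2c replicate 1 points lie lowest for 5 subunits and for the cell-cycle list, sgKmt2c replicate 2 lies far above the rest for Smarca2, and the Arid2 points stay close to 0.

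The lines contributed unequally to the spread among the members. sg*Kmt2c* line 1 was the lowest of the 6 for *Smarca4*, *Smarcc1*, *Smarcb1*, *Smarce1* and *Arid1a*, that is 5 of 10 members, while 35.4% of all genes tested had their lowest value there. Its difference from the mean of the other 5 lines, on the log2 scale, had a median of -0.64 over all 10 members and of -0.13 over all genes tested, given as a description without a test. Relative to the mean RPKM of the other 5 lines, the line ranged from 0.390 for *Smarca2* to 0.990 for *Arid2*. For *Smarca2* that mean was raised by sg*Kmt2c* line 2 (44.8 RPKM), and sg*Trp53* lines 2 and 3 had similar ratios of 0.418 and 0.379. sg*Kmt2c* line 1 also had the lowest value of all 9 cell-cycle genes listed (*Mki67*, *Top2a*, *Ccnb1*, *Cdk1*, *Pcna*, *Mcm2*, *Mcm5*, *Plk1* and *Aurkb*), whose sum was 1084 RPM against 2477 to 3371 in the other lines. By gene, 10 of 12 hepatocyte markers and 7 of 7 epithelial markers were highest in this line, and 1 hepatocyte marker was at its lowest there. The part of proliferation, or of these markers, in the low subunit levels was not tested. At the other end, sg*Trp53* line 2 was the highest line for 6 of the 10 members, against 19.0% of all genes. Its lead was within counting error for *Smarcb1* (60.80 RPKM, against 60.79 in sg*Kmt2c* line 2) and *Arid1a* (38.80, against 38.65 in sg*Trp53* line 1). That line also had the highest fibroblast marker sum (4078 RPM) and the lowest epithelial marker sum (102 RPM). Their part in the subunit levels was not tested.

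Levels of different subunits can be compared only per length, and the lengths listed with the deposited values were unsuited to this for 3 members. *Smarcc1* was divided by a listed length of 351 bases where its longest coding transcript has 5773, *Arid1b* by 418 where it has 11325, and *Arid2* by 809 where it has 9029. Their deposited RPKM values were thereby 16.4, 27.1 and 11.2 times higher than with the coding transcript. Of 16673 genes with a coding transcript, 3.49% were listed at under 20% of its length. These divisors are the same in every line, so they set the order of genes but hardly touch the comparisons between lines above.

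When RPKM was recomputed with the longest coding transcript, *Smarcc1* and *Smarca4* had the highest levels. The levels over the 6 lines were 86.0 ± 23.9 for *Smarcc1* and 85.6 ± 21.2 for *Smarca4* (SD), which did not differ beyond their spread, as *Smarcc1* was the higher in only 2 lines. *Smarca4* exceeded the next gene in all 6 lines. *Smarce1* at 47.8 ± 7.65 and *Smarcb1* at 47.5 ± 12.5 followed and could not be ordered, with 3 lines either way. *Pbrm1* (40.0 ± 5.14), *Arid1a* (33.4 ± 7.29), *Smarcc2* (26.1 ± 4.23) and *Arid2* (18.9 ± 1.03) came next, and each exceeded the gene after it in 4 or 5 of the 6 lines, *Smarcb1* over *Pbrm1* included in 4. *Smarca2* at 14.2 ± 15.0 and *Arid1b* at 11.3 ± 2.11 were the lowest, and *Smarca2* was above *Arid1b* in only 2 lines. By the listed lengths, *Arid1b* and *Arid2* would instead have been ranks 2 and 3. With the union of all exons as the length, *Smarca4* and *Smarcc1* stayed at ranks 1 and 2 in exchanged order, but *Smarcb1* moved from rank 4 to rank 10, so the middle of the order depends on the gene model.

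**Figure D3:**
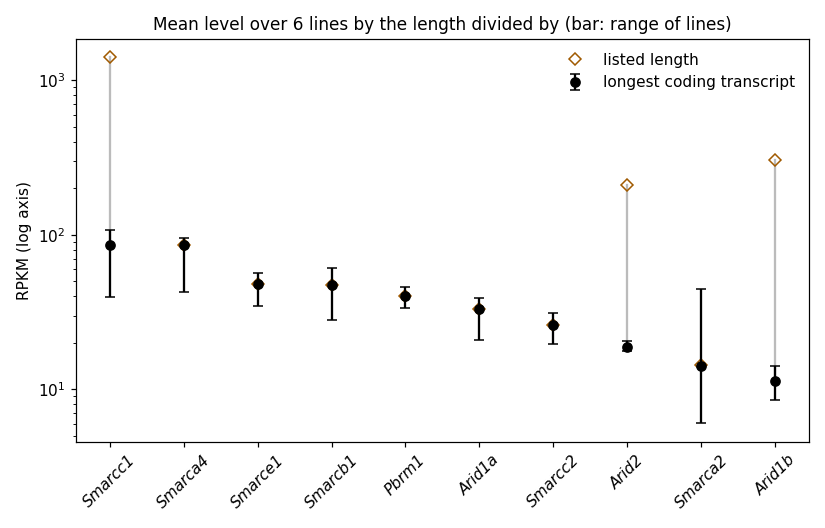
Mean level over the 6 lines in RPKM (log axis) for the 10 subunits, divided by the length of the longest coding transcript (black, bars give the range of the lines) or by the length listed with the deposited values (open diamonds). The symbols coincide for 7 subunits, while for Smarcc1, Arid2 and Arid1b the listed length gives values 16.4, 11.2 and 27.1 times higher.

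Ratios of alternative subunits within a line do not change when each library is scaled by a single factor, and 4 were compared. Expressed per coding length, the *Smarca2* level was 0.0981, 0.0724 and 0.0629 of the *Smarca4* level in sg*Trp53* lines 1 to 3, and 0.146, 0.468 and 0.136 of it in sg*Kmt2c* lines 1 to 3. *Smarca4* thus exceeded *Smarca2* in every line, and the ratio was higher in each sg*Kmt2c* line than in any sg*Trp53* line. In sg*Kmt2c* line 1 the numerator was within the range of the sg*Trp53* lines and *Smarca4* was low, while in lines 2 and 3 *Smarca4* was level with the sg*Trp53* lines and *Smarca2* was higher. The Wilson 95% interval from the reads was 0.121 to 0.153 for the lowest sg*Kmt2c* ratio and 0.0876 to 0.110 for the highest sg*Trp53* ratio, which covers counting error only. The mean log2 ratios were -3.71 ± 0.33 and -2.25 ± 1.00 (SD, n = 3), a difference of 1.46, with an exact two-sided permutation p of 0.1, the smallest that 3 against 3 lines allow, and 0.2 after Benjamini-Hochberg adjustment over the 4 ratios.

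The *Smarcc2* to *Smarcc1* ratio was 0.209, 0.289 and 0.269 across the sg*Trp53* set, against 0.610, 0.316 and 0.308 across the sg*Kmt2c* set. It also did not overlap between the genotypes, but the gap was narrow outside sg*Kmt2c* line 1, as the Wilson 95% interval of the lowest sg*Kmt2c* ratio (0.283 to 0.337) included the highest sg*Trp53* ratio. The difference in mean log2 ratio was 0.62 (exact two-sided permutation p = 0.1, adjusted 0.2). The *Arid1b* to *Arid1a* ratio overlapped, at 0.317, 0.363 and 0.320 against 0.438, 0.301 and 0.329, with *Arid1a* the higher paralog in every line and a log2 difference of 0.08 (exact two-sided permutation p = 0.8, adjusted 0.8). *Arid2* relative to the sum of *Arid1a* and *Arid1b*, a ratio of a PBAF to BAF subunits, was 0.403, 0.369 and 0.372 across the sg*Trp53* set, against 0.626, 0.485 and 0.386 across the sg*Kmt2c* set. These overlapped through sg*Kmt2c* line 3, with a log2 difference of 0.36, or 0.31 by the listed lengths (exact two-sided permutation p = 0.2, adjusted 0.267). In all, 2 of the 4 ratios did not overlap between the genotypes. The share of 16.2% is for levels of single genes, and no share over ratios of other gene pairs was computed. After quantile scaling of the libraries, the exact two-sided permutation p for *Smarcc2* to *Smarcc1* was 0.2. No ratio could reach an adjusted p under 0.05, because the smallest exact p with 3 lines per genotype is 0.1. The adjusted values therefore do not decide whether any ratio differs between the genotypes.

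**Figure D4:**
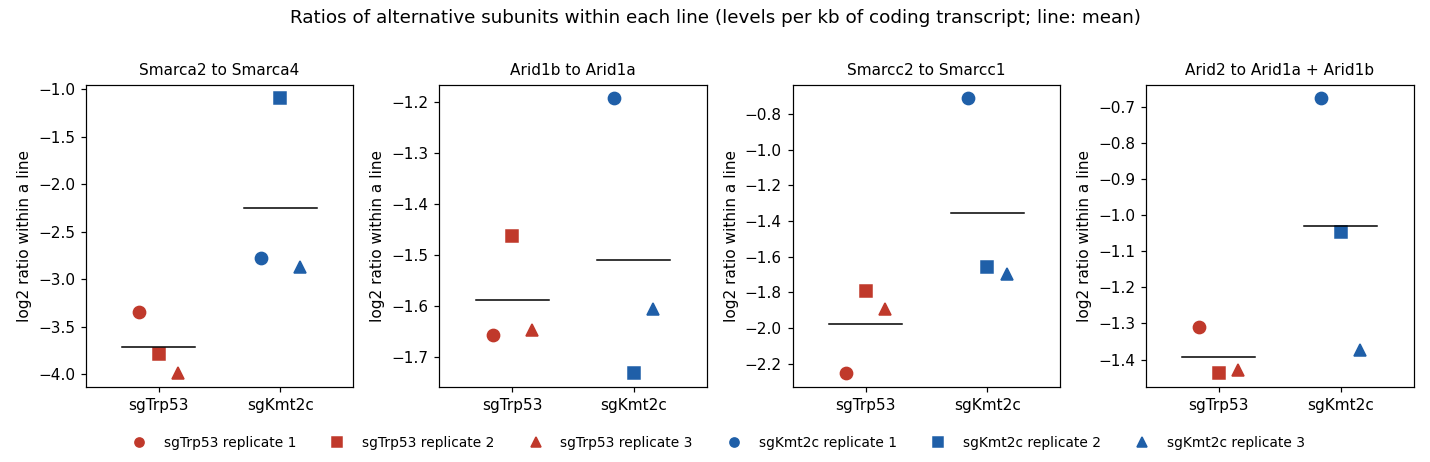
Log2 ratio of alternative subunits within each line (y axis, a scale of its own for each panel), from levels per kb of coding transcript, in the 3 sgTrp53 lines (red) and the 3 sgKmt2c lines (blue), with horizontal lines for the means. The sgKmt2c points lie above all sgTrp53 points for Smarca2 to Smarca4 and for Smarcc2 to Smarcc1, and overlap with them for the other two ratios.

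The remaining SWI/SNF subunits were examined alongside the 10. Of 21 names listed, which stand for 19 genes, 18 were among the genes with values and 17 were tested, *Dpf3* being too low. None passed an adjusted p of 0.05 by limma, and the count at an unadjusted p under 0.05 was also 0. The fitted difference was positive for 7 and negative for 10, with a median of -0.07 on the log2 scale. The smallest p belonged to *Actl6a*, which encodes the actin-related subunit BAF53A, at 116, 132 and 130 RPKM across the sg*Trp53* set, against 62.6, 64.6 and 121 across the sg*Kmt2c* set. sg*Kmt2c* lines 1 and 2 were low, as for *Arid1a* and *Arid1b*, and line 3 was near the sg*Trp53* lines. Its log2 fold change was -0.66 (95% CI -1.34 to 0.02, limma adjusted p = 0.592). *Brd7*, a bromodomain subunit of PBAF, was at 25.5, 24.2 and 24.7 RPKM against 18.5, 20.3 and 20.6 RPKM, and *Gltscr1l*, a subunit of the non-canonical complex, at 5.26, 4.31 and 4.96 RPKM against 6.68, 7.83 and 5.51 RPKM. No line reached the range of the other genotype for these, nor for *Ss18l1*, which is named after its values were seen and was lower in the sg*Kmt2c* lines, so that 3 of 17 did not overlap beside 16.2% of all genes. The limma adjusted p was 0.646 for *Brd7*, 0.675 for *Gltscr1l* and 0.679 for *Ss18l1*.

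**Figure D5:**
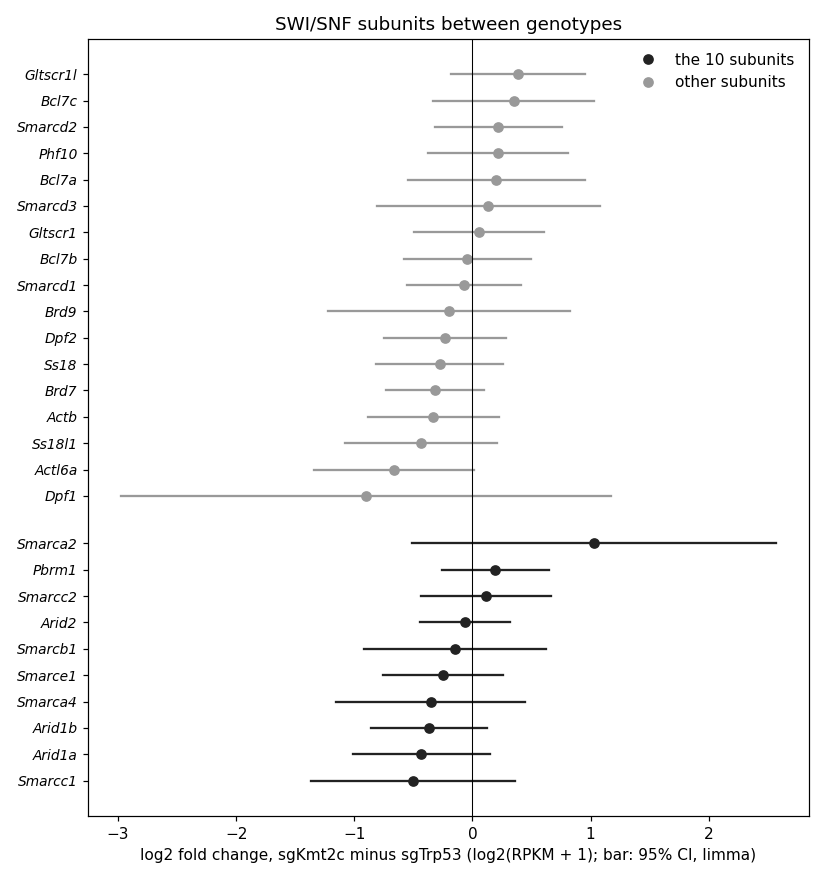
Fitted log2 fold change, sgKmt2c minus sgTrp53 (x axis, log2(RPKM + 1) scale), with the 95% confidence interval from limma for the 10 subunits (black) and 17 other SWI/SNF subunits (grey). All intervals include 0, and those of Smarca2 and Dpf1 are the widest.

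Remodelers of the other families were listed for comparison. Of 21 ISWI, CHD, INO80 and related genes, 19 were tested, and 0 passed an adjusted p of 0.05, while 2 had an unadjusted p under 0.05 beside 8.58% of all genes. *Chd9* was at 2.44, 0.748 and 1.51 RPKM across the sg*Trp53* set, against 5.69, 4.43 and 5.44 across the sg*Kmt2c* set, with a log2 fold change of 1.32 (95% CI 0.54 to 2.10, limma adjusted p = 0.388). *Chd7*, a remodeler of enhancers, was at 21.5, 30.5 and 15.6 RPKM against 2.61, 2.79 and 12.8 RPKM, with a log2 fold change of -1.98 (95% CI -3.34 to -0.63, limma adjusted p = 0.427). *Ep400*, the ATPase of the TIP60 complex, was at 25.8, 29.4 and 26.7 RPKM against 18.2, 21.7 and 25.3 RPKM, with a limma adjusted p of 0.674. For these 3 of the 19 genes no line reached the range of the other genotype, beside 16.2% of all genes. Whether the remodeler families differ from the SWI/SNF subunits was not tested.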

How the data were processed

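RNA of 6 mouse liver tumor lines was sequenced with the TruSeq RNA kit v2, which does not mark strand. According to the submitters' processing notes and the paper's methods, the authors used Trimmomatic to trim, STAR to align to GRCm38 and HTSeq to count, and then deposited RPKM per gene. Whether counting used strand is not given in the sources used here. The deposited transcript lengths served to recover reads. Sequencing lanes were only counted, and no batch was looked for by lane. The table has 21065 rows, 209 without values, and 6 columns of other samples that were not used. The authors' table of their DESeq2 1.8.2 comparison (mean counts, fold changes and p-values) was not used.

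RPKM times listed length gave whole reads for 100% of values (tolerance 0.01 read), and 1 read at 2 kb was worth 0.0726 to 0.136 RPKM. Genes with at least 1 RPKM in at least 3 libraries (11617) were fitted with limma 3.58.1 in R 4.3.3 (lmFit, eBayes with trend) on log2(RPKM + 1), genotype only, with Benjamini-Hochberg adjustment. Fold changes of low genes are understated on this scale. The limma p-values set a difference against the spread among these lines, which eBayes moderates with the spread of the other genes tested. Exact permutation tests were two-sided. Coding lengths came from GENCODE vM1 by gene identifier, for lengths only. Intervals from reads cover counting error only. Genes named by rule were the 10 members, the 3 with the smallest p in each other list of remodeler genes, and *Trp53* and *Kmt2c*. *Ss18l1* and *Dpf1* were named after their values were seen, *Dpf3* as untested, and marker genes as members of their lists. The members and lists were chosen with earlier results of these data known. Alternatives covered the pseudocount, filter, scaling, a count-based voom fit, a replicate block and each line left out. The immune marker list is not reported here.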

Additional observations from a re-analysis of the deposited data

How the results depend on the processing

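Under 17 alternatives of the fit, 0 of 170 member fold changes passed an adjusted p of 0.05 (adjusted p 0.339 to 0.995), and 165 kept their direction. The count of members called, and those of the other SWI/SNF subunits and other remodelers, stayed at 0 under each, with a range of 0 to 0 when single lines were left out. No gene at all was called with the replicate block or with sg*Kmt2c* lines 2 and 3 as a single sample. The same held without any single line except sg*Kmt2c* line 1. Counts of 0 from these fits say nothing about the members. The remaining fits called between 4 (voom on the recovered reads) and 40 (no filter) genes in all. With so few calls, a count of 0 in a short list does not set the members apart from other genes. The directions that turned were those of *Arid2* after median-of-ratios scaling (0.017), *Smarcc2* without sg*Trp53* line 1 (-0.050), *Smarcb1* without sg*Trp53* line 2 (0.011), and *Smarca4* (0.029) and *Smarcb1* (0.16) without sg*Kmt2c* line 1. With single lines left out, these ranged from -0.55 to 0.029 for *Smarca4*, -0.39 to 0.16 for *Smarcb1* and -0.050 to 0.27 for *Smarcc2*, and the others from 0.30 to 1.63 for *Smarca2*, -0.76 to -0.10 for *Smarcc1*, -0.35 to -0.089 for *Smarce1*, -0.63 to -0.23 for *Arid1a*, -0.52 to -0.26 for *Arid1b*, -0.11 to -0.018 for *Arid2* and 0.13 to 0.29 for *Pbrm1*. Likewise, the median log2 fold change of the members was -0.31 to -0.02, and the differences in log2 ratio were 0.88 to 1.77 for *Smarca2* to *Smarca4*, 0.30 to 0.79 for *Smarcc2* to *Smarcc1*, -0.080 to 0.19 for *Arid1b* to *Arid1a* (-0.080 without sg*Kmt2c* line 1) and 0.24 to 0.45 for *Arid2* to *Arid1a* plus *Arid1b*, the last with listed lengths, as is its main value of 0.31. Coding lengths, which gave 0.36, and union exon lengths were chosen after seeing the data.

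Over all genes, 15 calls became 0 with the replicate number as a block (1085 at an unadjusted p under 0.05), 4 with voom on the recovered reads, 6 with a pseudocount of 0.1 and 40 without a filter. They became 8 without sg*Kmt2c* line 1 and 0 without any other single line (563 to 1477 unadjusted), and 0 with sg*Kmt2c* lines 2 and 3 as a single sample (1031 unadjusted). Where no gene was called, a count of 0 says nothing about the members. Where few genes were called, it does not set the members apart from other genes. The replicate block left the members' median at -0.20 and called 0 members. Same-numbered lines correlated in their deviations at 0.192, 0.399 and 0.0316 across genes, which are not independent replicates, and 4 of 6 lines correlated best with their own number. The labels do not state that the numbers pair the lines, and the main fit did not use them. Whether the numbers mark a batch was not tested. Depth was 172 to 4203 reads per line for the ATPases, and 3 lines per genotype limit the precision of every comparison.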
